A study of Mus musculus with 6 samples.

Results

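The windows described here are 100 bp stretches of the mouse autosomes whose CpGs were almost fully methylated in a pair of control cortices and below 30% in every Uhrf1 cKO cortex. They were selected by their measured level: at least 85% in control replicates 2 and 3 and below 30% in cKOs, with at least 20 reads in every library. This held for 982 windows of the 29121 that had at least 85% in control replicates 2 and 3, and of the 160870 autosomal windows with enough reads. The remaining 28139 windows at 85% or more in these controls serve as the comparison and are called the other highly methylated windows. The levels that chose the windows are given as a description and were not tested.

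The assay, Ox-RRBS, combines oxidation with bisulfite sequencing of a reduced part of the genome. In it MspI cuts the DNA at CCGG, 5-hydroxymethylcytosine is oxidised so that it is read as unmethylated, and a cytosine that survives bisulfite as C counts as 5-methylcytosine (5mC). The tissue was the full cortex of C57BL/6 embryos at E16, with 3 control libraries (genotype Uhrf1 +/-) and 3 cKO libraries (genotype Uhrf1 -/-). Both groups carried Cre from the Emx1 locus, which removes a floxed exon of Uhrf1 in the progenitors of the dorsal telencephalon. Interneurons, microglia and vessel cells of the cortex lie outside this lineage and keep the gene, and their share in the libraries was not measured. A level of 23% can therefore be few methylated copies in every cell or many in some cells, and these cannot be told apart in bulk tissue.

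Uhrf1 binds hemimethylated CpGs behind the replication fork and brings the maintenance methyltransferase Dnmt1 to them, so that the new strand receives the marks of the old one. Without this step methylation is diluted with each cell division. Methylation inside genes and between genes is high in most mammalian tissues, while CpG islands at gene starts are mostly free of it.

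The library labelled control replicate 1 went against its label. Over the 982 windows its mean level was 26.6% ± 12.4 (SD over windows), whereas the other controls were at 90.8% and 91.4% and the cKO libraries at 22.9%, 23.1% and 21.3%. Values are given in the order of replicates 1, 2 and 3 throughout. Over the other highly methylated windows it was at 37.9%, against 91.7% and 92.2% in the other controls and 46.3%, 44.8% and 36.7% in cKOs. The rule did not use it, and each test is given with and without it. Leaving it out is a choice made on its methylation, which is the outcome measured. The libraries held between 18238737 and 31019082 reads over listed cytosines, with a median coverage of 13 to 17 reads per cytosine.

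The sequences of 3 of the 8 windows with the largest falls are shown, among windows with at least 5 counted cytosines and 50 reads in every library, as examples with several CpGs each. All are printed from the forward strand of GRCm38, with the counted CpGs in capitals. The window in Kmt2d lies at chr15:98835301-98835400 in a coding exon, that in Mtus2 at chr5:148281701-148281800 in an intron and that in Traf4 at chr11:78160001-78160100 in a coding exon.
Kmt2d: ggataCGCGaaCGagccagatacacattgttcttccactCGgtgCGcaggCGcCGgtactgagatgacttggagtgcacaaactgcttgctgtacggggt
Mtus2: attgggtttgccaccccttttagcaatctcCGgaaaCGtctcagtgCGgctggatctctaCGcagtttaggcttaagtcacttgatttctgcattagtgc
Traf4: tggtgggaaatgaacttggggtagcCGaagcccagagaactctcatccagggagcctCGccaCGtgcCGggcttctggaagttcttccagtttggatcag

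A pair of windows 100 bp apart in an intron of Fancl, at chr11:26461501-26461600 and chr11:26461601-26461700, is shown because the former kept its methylation in cKOs and the latter did not. Each held 1 counted CpG, near the border between them.
Fancl, kept window: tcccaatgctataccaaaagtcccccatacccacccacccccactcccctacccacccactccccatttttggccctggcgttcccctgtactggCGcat
Fancl, window below 30% in cKO: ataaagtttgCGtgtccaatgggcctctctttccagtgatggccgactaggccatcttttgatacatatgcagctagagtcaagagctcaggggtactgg

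The other pairs lie in introns of Ascc3 (chr10:50814301-50814400 low in cKO, chr10:50814601-50814700 kept) and Dtnb (chr12:3625701-3625800 low, chr12:3625801-3625900 kept) and in a coding exon of Bop1 (chr15:76474901-76475000 low, chr15:76474801-76474900 kept).
Ascc3, window below 30% in cKO: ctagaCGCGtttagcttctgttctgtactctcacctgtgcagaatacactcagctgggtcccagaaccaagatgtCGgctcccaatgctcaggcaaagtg
Ascc3, kept window: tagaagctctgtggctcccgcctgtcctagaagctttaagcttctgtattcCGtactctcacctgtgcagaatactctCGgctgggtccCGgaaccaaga
Dtnb, window below 30% in cKO: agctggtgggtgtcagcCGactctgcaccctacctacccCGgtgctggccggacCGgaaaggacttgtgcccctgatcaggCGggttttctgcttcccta
Dtnb, kept window: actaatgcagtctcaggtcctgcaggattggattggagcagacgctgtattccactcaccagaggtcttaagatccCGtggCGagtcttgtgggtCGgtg
Bop1, window below 30% in cKO: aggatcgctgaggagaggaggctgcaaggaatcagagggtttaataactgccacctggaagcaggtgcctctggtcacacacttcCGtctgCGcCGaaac
Bop1, kept window: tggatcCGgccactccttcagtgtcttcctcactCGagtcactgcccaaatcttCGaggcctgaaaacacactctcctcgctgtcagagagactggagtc

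A run of 2 adjoining windows in an intron of Jph2 (chr2:163385301-163385500) is shown over 200 bases, with 1 counted CpG in each window.
Jph2: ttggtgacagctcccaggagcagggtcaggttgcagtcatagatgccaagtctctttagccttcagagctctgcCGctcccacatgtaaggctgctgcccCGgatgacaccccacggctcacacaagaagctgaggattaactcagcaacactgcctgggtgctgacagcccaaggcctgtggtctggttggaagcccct

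The low level in cKOs was a loss of most, but not all, of the methylation. The median over windows was 24.4%, 24.2% and 22.2% in cKOs, and 95% of the windows were above 11.1%, 12.3% and 10.7%. No window was below 10% in all 3 cKO libraries, 2 were below 15% and 32 below 20%. The windows are therefore described by their rule and not as emptied. The upper bound of the 95% Wilson interval of the pooled cKO reads was below 30% in 559 of the 982, so that for the others counting error reaches the limit of the rule. Intervals cover counting error of reads only. The reads carry no molecular identifiers, so that copies of the same molecule count as separate reads and the intervals can be too narrow.

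The 2 windows below 15% in all 3 cKO libraries both lay between genes. At chr1:191095301-191095400 the level was 15.6%, 89.6% and 85.7% in controls and 7.41%, 10.9% and 9.79% in cKOs, over 3 cytosines. At chr10:79888701-79888800 it was 41.5%, 89.6% and 90.3% in controls and 11.3%, 8.96% and 6.35% in cKOs, over 5 cytosines. All cKO libraries lay below all controls at both. A level of 0 in a cKO library occurred in 12 windows and never in 2 cKO libraries of the same window.

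**Figure D1:**
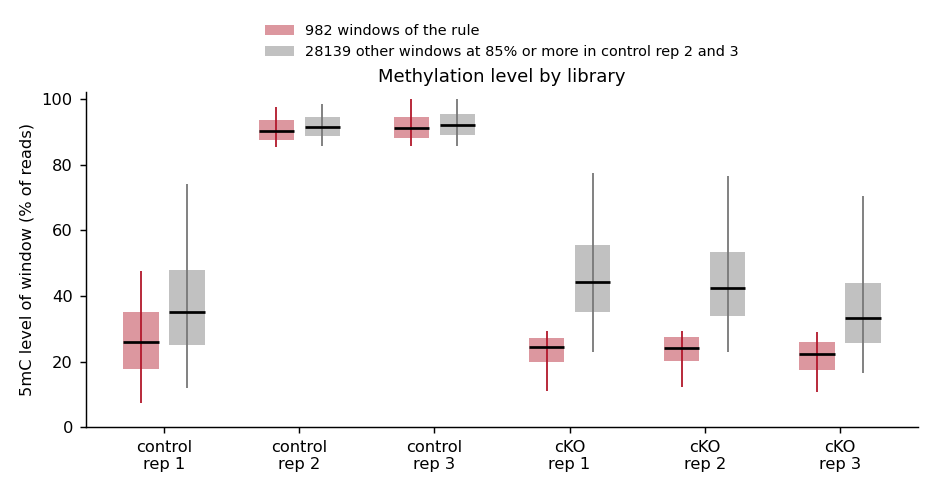
Methylation level of windows (vertical axis, percent of reads) in each library (horizontal axis), for the 982 windows of the rule in red and the 28139 other highly methylated windows in grey. Boxes span the quartiles, black lines are medians and thin lines run from the 5th to the 95th percentile; in the library labelled control replicate 1, which the rule did not use, the medians were 25.9% and 35.2%.

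Since control replicate 1 was not part of the rule, its level at these windows was free to vary. It was below control replicates 2 and 3 in all 982 windows, and in 27885 of the 28139 other highly methylated windows. Both kinds of window were chosen for high levels in control replicates 2 and 3. This count therefore does not set the 982 windows apart. Control replicate 1 was above all cKO libraries in 462 windows, below all of them in 252 and between them in 268. In the 28139 other highly methylated windows these counts were 4439, 10630 and 13070. The rule holds the cKO libraries below 30% but not control replicate 1, so that the selection itself favours windows where it lies above them. Control replicate 1 was below 30% in 618 of the 982 windows (62.9%), against 37.4% of the other highly methylated windows. It was at 50% or more in 40 of the 982 (4.07%) against 23%. The windows that were lowest in cKOs were thus also lower than the rest in this library.

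The rule has thresholds, and the windows at its border hardly differ from those beyond it. Just inside lay a window in an intron of Rgs3, a regulator of G protein signalling (chr4:62570501-62570600), with 43.8%, 85% and 96.7% in controls and 25%, 25.7% and 29.6% in cKOs. Also just inside was a coding exon of Col16a1, a collagen gene (chr4:130090101-130090200), with 31.1%, 85% and 89.7% in controls and 29.8%, 21.0% and 13.3% in cKOs. Just outside lay an intergenic window at chr8:37094301-37094400, with 27.6%, 85.7% and 87.4% in controls and 30.0%, 29.2% and 26.7% in cKOs. A coding exon of Camkv, a kinase-like gene (chr9:107946001-107946100), missed the rule with 15.4%, 87.3% and 87.7% in controls and 30.0%, 24.5% and 21.6% in cKOs.

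The share of windows that met the rule depended on depth. It was 3.98% of the highly methylated windows with 20 to 30 reads in their shallowest library, 3.41% with 30 to 50, 2.86% with 50 to 100 and 1.47% with 100 or more. The mean cKO level of all highly methylated windows moved with it, from 40.8% in the shallowest of these groups to 47.5% in the deepest. The part of depth in membership was not tested. The 982 windows had a median of 33 reads in the shallowest library and 2 counted cytosines, and 283 of them (28.8%) rested on 1 cytosine.

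The largest falls among windows with at least 5 counted cytosines and 50 reads in every library, which 36 of the 982 had, lay inside genes. Over all 982 windows the fall, from the mean of control replicates 2 and 3 to the cKO mean, had a median of 68.2 points and reached 87.9. In a coding exon of Ncoa5, a nuclear receptor coactivator (chr2:165013001-165013100), the level was 20%, 96.5% and 98.5% in controls and 18.2%, 28.0% and 12.8% in cKOs. In Kmt2d, a histone H3 lysine 4 methyltransferase, it was 16.5%, 89.3% and 93.8% in controls and 14.1%, 18.6% and 9.96% in cKOs. The library labelled control replicate 1 lay within the range of the cKO libraries at both windows. The Wilson interval of cKO replicate 3 at Kmt2d ran from 6.94% to 14.1%.

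In the intron of Mtus2, which encodes a microtubule-associated protein, the level was 27.9%, 96.2% and 91.6% in controls and 23.5%, 22.7% and 18.6% in cKOs. In Traf4, a signalling adaptor gene, it was 15.5%, 87.1% and 91.3% in controls and 20.4%, 23.9% and 10.7% in cKOs. In Mtus2 the library labelled control replicate 1 lay just above the cKO libraries, and in Traf4 it lay among them.

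At the other named windows of this kind control replicate 1 ranged widely. A coding exon of Gtpbp1, a GTP-binding protein gene (chr15:79720001-79720100), had 43.1%, 87.9% and 96.5% in controls and 20.5%, 24.2% and 10.2% in cKOs, the widest gap between control replicate 1 and the cKOs among those named. A coding exon where Ccdc189 and Phkg2 overlap (chr7:127582601-127582700) had 22.9%, 95.4% and 94.4% in controls and 24.7%, 26.8% and 16.1% in cKOs. A non-coding exon of Zfp84, a zinc finger gene (chr7:29778301-29778400), had 31.0%, 91.7% and 93.0% in controls and 7.41%, 28.3% and 29.4% in cKOs. At Zfp84 the cKO libraries differed among themselves by more than their Wilson intervals, which ended at 15.2% in cKO replicate 1 and began at 18.5% and 23.2% in cKO replicates 2 and 3.

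**Figure D2:**
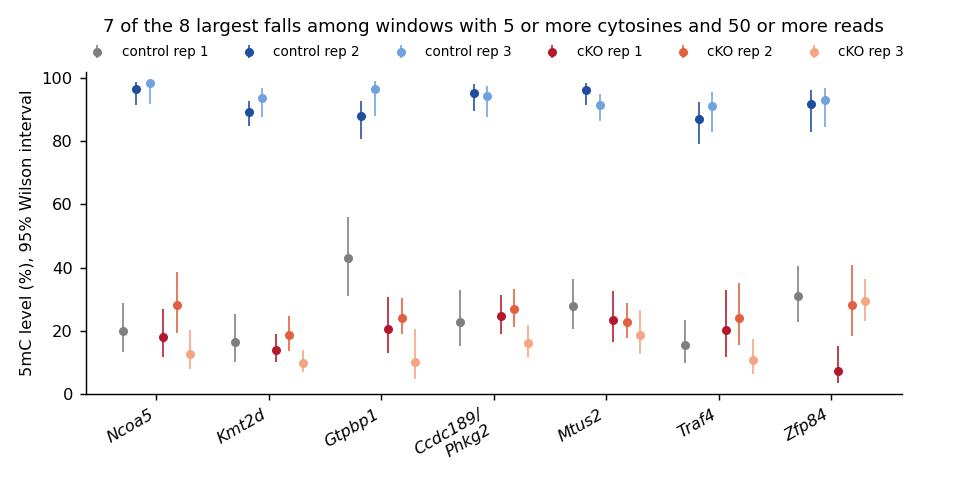
Methylation level (vertical axis, percent, with 95% Wilson intervals) of 7 of the 8 windows with the largest falls among those with at least 5 counted cytosines and 50 reads in every library, named by gene on the horizontal axis; each point is 1 library. In every window control replicates 2 and 3 lie at 87.1% or more and the cKO libraries at 29.4% or less, and the library labelled control replicate 1 reaches 43.1% in Gtpbp1.

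Counted cytosines lay on both strands of the DNA in 107 of the windows, though not necessarily at the same CpG. The pooled cKO level was below 30% on both strands in 70 of these and on 1 strand in 37. The rule limits the level over both strands together, so that at least 1 strand had to be below 30%. A few cytosines in the same windows were left out of the rule because control replicate 1 did not cover them. These 11 cytosines, in 5 windows, were at 88.6% and 85.2% in control replicates 2 and 3 and at 19.3%, 26.8% and 25.7% in cKOs. The 482 cytosines left out in the same way of other highly methylated windows were at 88.2% and 86.4% in controls and 54.2%, 51.8% and 45.8% in cKOs. These cytosines can be read by the same fragments as those that the rule used, so that their low cKO level is not independent of the selection.

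Few of the windows had a neighbour that could be compared, since 371 of the 982 had any adjoining window with enough reads. In all, 38 windows formed 19 runs of 2, with none longer, and 944 stood alone among the windows read. Where a neighbour could meet the rule, it did so more often next to one of the 982. Among highly methylated windows next to one of the 982, 19.8% met the rule too, against 2.62% next to another highly methylated window. At 200 bp the shares were 8.0% and 2.35%, and at 300 to 1000 bp they were 2.88% and 2.50%. Adjoining windows can be read by the same fragments, so that the nearest ones are not independent.

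In the run in Jph2, a junctophilin gene, the first was at 40.0%, 94.1% and 87.5% in controls and 12.8%, 18.5% and 15.1% in cKOs, and the second at 43.5%, 86.3% and 91.7% in controls and 22.7%, 28.0% and 12.8% in cKOs. A run in coding exons of the co-chaperone gene Dnajb2 (chr1:75239501-75239700) differed in control replicate 1, which stood at 69.2% and 51.3% in its windows, far above the cKO libraries, with 23.1%, 28.0% and 23.1% in the first window and 29.6%, 26.5% and 9.43% in the second.

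The level around the windows was compared at 300 to 1000 bp, where no cytosine had entered the rule for the window at the centre. Neighbours that met the rule themselves were kept. They made up 4 of 403 pairs here and 135 of 12000 pairs around the other highly methylated windows. The tests are therefore not wholly free of the levels that chose the windows. Over 403 pairs of a window and a neighbour, the neighbours were at 26.8%, 78.1% and 78.1% in controls and at 34.7%, 34% and 25% in cKOs. Controls had a mean of 61.0% ± 29.6 (SD, n = 3) and cKOs one of 31.2% ± 5.40 (SD, n = 3). The difference of -29.8 points was close to the SD of the controls and did not pass the test (exact permutation p = 0.3, two-sided, where 0.1 is the smallest value the design allows). When control replicate 1 was left out of the whole procedure, which then gave 1076 windows and 530 pairs, the difference was -46.1 points, with both controls above all 3 cKOs (exact p = 0.1, the smallest possible).

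Whether this fall was larger than around other highly methylated windows was tested on the difference between both kinds of neighbours within each library. The level of neighbours of the 982 windows minus that of neighbours of the others was -6.46, -2.37 and -1.97 points in controls and -6.08, -5.86 and -7.38 points in cKOs. The cKO mean of this difference minus the control mean was -2.84 points, which did not pass the test (two-sided exact permutation p = 0.3, adjusted 0.3 over 2 comparisons). Without the library labelled control replicate 1, which had the second largest deficit of all libraries, the value over these 1076 windows was -3.67 points (exact p = 0.1, the smallest possible). With all libraries it was -5.61 points among windows of 50 reads or more (exact p = 0.1), and without control replicate 2 or 3 it was -0.983 and -0.854 points.

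When only neighbours at 85% or more in control replicates 2 and 3 were taken, an alternative chosen after seeing the data, 139 pairs remained. These neighbours of the 982 windows were at 31.8%, 91.1% and 92.3% in controls and 40.0%, 39.6% and 30.2% in cKOs. Those of the other highly methylated windows were at 40.6%, 92.1% and 92.5% in controls and 48.4%, 47.9% and 39.4% in cKOs. The cKO minus control value of the difference was -5.31 points with all libraries (exact p = 0.3) and -8.40 points over the 169 such pairs found without control replicate 1 (exact p = 0.1, the smallest possible). All 3 cKO libraries and the library labelled control replicate 1 were thus lower near the 982 windows than near the others, with differences from -9.19 to -8.33 points. The filter itself holds control replicates 2 and 3 at 85% or more near both kinds of window. Without control replicate 1, their differences were -0.909 and -0.397 points with the filter and -3.27 and -2.93 points without it. The tests on these neighbours are therefore not independent of the filter.

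**Figure D3:**
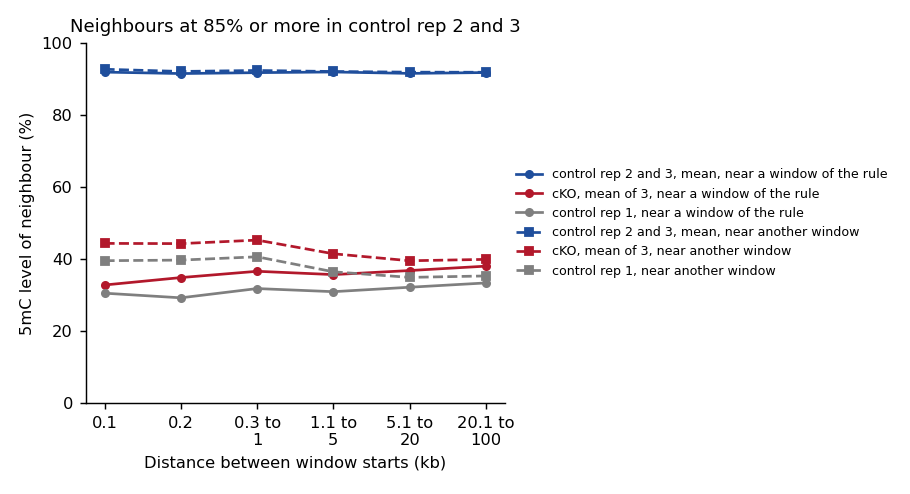
Mean level (vertical axis, percent) of neighbouring windows at 85% or more in control replicates 2 and 3, by distance between window starts (horizontal axis, kb), around the 982 windows (solid lines, circles) and around other highly methylated windows (dashed lines, squares). The cKO mean (red) and control replicate 1 (grey) are lower around the 982 windows at every distance shown. Control replicates 2 and 3 (blue), which the choice of neighbours holds at 85% or more, are near 92% around both.

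In the test across all 285466 windows of the genome, which adjusts for the spread between libraries, 0 windows (0%) were lower or higher in cKOs at q under 0.01 and 25 points in the moderated quasi-binomial test with all 6 libraries. An unadjusted p under 0.05 was found in 43457 windows there and in 28427 in the test of limma, which also called 0. When control replicate 1 was left out, 125019 windows (43.8%) were called lower. All 982 windows were among them, which the rule had fixed, since it used the same libraries. The neighbours at 300 to 1000 bp that did not meet the rule themselves were called lower in 340 of 390 cases (87.2%), and those of the other highly methylated windows in 7140 of 8680 (82.3%).

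At 4 places a window of the rule lay within 1000 bp of a window at 85% or more in control replicates 2 and 3 that kept at least 60% in all cKO libraries. In total 1905 highly methylated windows kept that much. At Fancl, a ubiquitin ligase gene of the Fanconi anaemia pathway, the low window was at 31.6%, 90.6% and 95.8% in controls and 25.4%, 27.2% and 19.15% in cKOs. The CpG in the window before it was at 94.9%, 94.3% and 97.9% in controls and 99.3%, 99.3% and 100% in cKOs. Both CpGs were read equally often in every library, between 48 and 147 times, and both windows lay wholly in repeats.

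At Ascc3, a DNA helicase gene, the low window was at 71.4%, 95% and 92.3% in controls and 16.3%, 15.9% and 28.2% in cKOs, and 300 bp further on the kept window was at 87.5%, 97.4% and 97.8% in controls and 100%, 79.3% and 81.7% in cKOs. Here control replicate 1 was far above the cKO libraries, at the highest level it reached in any of the 982 windows. At Dtnb, which encodes a dystrobrevin, the low window was at 27.4%, 88.8% and 92.0% in controls and 28.8%, 23.1% and 26.7% in cKOs, and the kept window at 75%, 93.1% and 98.2% in controls and 71.4%, 85.3% and 69.2% in cKOs.

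At Bop1, a ribosome assembly gene, the low window was at 31.3%, 88.9% and 98.4% in controls and 29.4%, 16.4% and 28.1% in cKOs, and the kept window at 97.2%, 92.0% and 95.8% in controls and 96.9%, 91.7% and 64.0% in cKOs. The kept windows of these pairs were read 21 times or more in every library. Those at Ascc3 and Dtnb lay in repeats over 100 and 84 bp, and that at Bop1 over 0 bp. The low windows lay in repeats over 80 bp at Ascc3, 66 bp at Dtnb and 21 bp at Bop1. The low and the kept sequence printed for Ascc3 share a stretch of nearly the same bases. In all 4 pairs the Wilson intervals of the kept and the low window did not overlap in any cKO library. The pairs were chosen for a gap between these same cKO levels, so that the selection itself favours separate intervals. The separation is given as a description and is not a test.

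Where in the genome the windows lay differed from the other highly methylated windows. Counted inside annotated protein-coding genes were 690 of the 982 (70.3%), against 56.6% of the others and 65.3% of all 160870 windows. The median distance to the nearest 5′ end of a coding gene was 20404 bp, against 35053 bp. Repeats covered 50 bp or more in 12.02%, against 24.2%, and 15.9% were CpG island-like by sequence, against 21.2%. Windows are not independent replicates, and these shares are descriptions.

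The share of highly methylated windows that met the rule was 4.53% in coding exons (298 of 6575), 4.34% in non-coding exons (42 of 968), 3.86% in introns (338 of 8750), 3.21% in promoters (14 of 436) and 2.34% between genes (290 of 12392). With the GC content of the surrounding 10000 bp it was 2.06%, 2.00%, 3.15%, 4.02% and 5.64% from the lowest to the highest quintile. In the highest quintile alone it was 5.53% in coding exons, 6.20% in introns and 4.92% between genes. Promoters had 7.07% (7 of 99) and non-coding exons 4.56% (16 of 351) there. Non-coding exons thus lay below the share between genes in this quintile, and the other classes above it. In the lowest quintile the share was 4.51% in coding exons, 2.56% in introns and 1.75% between genes. Promoters had 2.17% (1 of 46) and non-coding exons 2.08% (1 of 48) in that quintile. The mean level of the library labelled control replicate 1 moved the same way, from 42.6% in the lowest to 32% in the highest GC quintile, as did the cKO mean, from 46.5% to 37.0%.

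**Figure D4:**
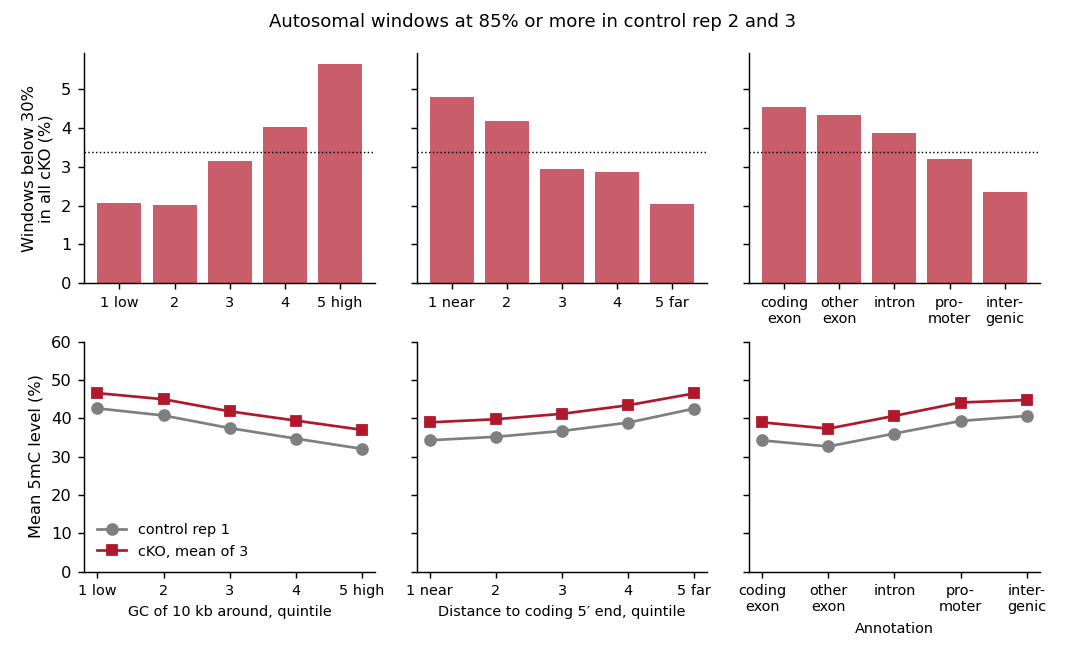
Upper panels, share (percent) of windows at 85% or more in control replicates 2 and 3 that were below 30% in all cKO libraries, by quintile of GC content over 10000 bp, by quintile of distance to a coding 5′ end and by annotation, with the share over all such windows (3.37%) as a dotted line. Lower panels, mean level (percent) of the same windows in control replicate 1 and in cKOs; both means fall from the lowest to the highest GC quintile, where the share is 5.64% and the means are 32% and 37.0%.

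Distance to a coding 5′ end gave 4.81% in the nearest and 2.04% in the farthest quintile. The share was 1.70% among windows with 50 bp or more of repeat and 3.89% among the rest. By chromosome it ran from 1.34% on chromosome 13 to 4.82% on chromosome 11. It was 3.79% of windows with 1 or 2 CpGs, 3.44% with 3 to 5 and 2.11% with 6 or more.

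The bases next to the CpG differed as well. Of the 2195 counted cytosines in the 982 windows, 14.4% had A or T on both sides of the CpG (WCGW, with W for A or T), against 10.2% in the other highly methylated windows and 8.93% in all windows. G or C on both sides (SCGS) was found at 52.4%, 58.0% and 59.2%. CpGs with no other CpG within 35 bp made up 12.7%, 9.13% and 6.73%. Among windows in which all counted CpGs were WCGW, 29 of 347 (8.36%) met the rule, against 2.79% of windows with SCGS alone.

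A short preset list of motifs was looked for on both strands, and none of them was shared by most of the windows beyond the enzyme's own site. Motifs outside this list were not searched for. CCGG, the MspI site, was present in 81.4% of the 982, 84.4% of the other highly methylated windows and 83.4% of all windows. CACGTG, the E-box, was present in 2.04%, 1.78% and 2.30%, and TGACG, the core of the cAMP response element, in 8.15%, 6.44% and 7.36%. The GC box core GGGCGG was present in 3.26%, 4.10% and 12.04% and GCGC in 13.6%, 17.6% and 29.3%, so that these were rarer in both kinds of highly methylated window than over all windows.

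The 690 windows inside genes fell in 661 protein-coding genes of the 7047 that had any highly methylated window, and a window in overlapping genes was counted in each. Of these genes 606 held 1, 51 held 2 and 4 held 3 or more. Most windows, 11 of 219, lay in Gm20388, an annotated gene of 4434882 bp on chromosome 8 that spans many others, among them Usp10, Gse1 and Jph3. Its share of 5.02% was near that of all genes together, 4.16%.

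In Dnah10, which encodes a dynein of motile cilia (chr5:124725085-124834308), 3 of 8 highly methylated windows met the rule, all in coding exons. In the first, at chr5:124758301-124758400, the level was 29.4%, 93.9% and 88.9% in controls and 26.2%, 29.6% and 25.2% in cKOs. Sept9, a septin gene (chr11:117199661-117362325), had 3 of 11, all in introns. The window at chr11:117205701-117205800 there was at 20%, 92.2% and 100% in controls and 22.6%, 21.9% and 20.6% in cKOs. Pcnt, which encodes the centrosome protein pericentrin (chr10:76351263-76442786), had 3 of 13, of which 2 adjoined each other in a coding exon.

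Arnt2, a transcription factor gene of the bHLH-PAS family, had 2 highly methylated windows and both met the rule. Its exonic window (chr7:84251401-84251500) was at 9.84%, 94.6% and 92.6% in controls and 28.6%, 27.0% and 22.2% in cKOs, and its intronic window (chr7:84276301-84276400) at 13.8%, 86.6% and 97.7% in controls and 21.6%, 18.1% and 11.6% in cKOs. In the exonic window the library labelled control replicate 1 was below all cKO libraries. C87436 also had 2 of 2, in adjoining coding windows.

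Among genes with at least 10 highly methylated windows, the highest shares after Sept9 and Pcnt were 20% each, 2 of 10, in Cacna1i, Cad and Kmt2d. Cacna1i encodes a T-type calcium channel, and its exonic window (chr15:80378201-80378300) was at 37.3%, 95.3% and 92.4% in controls and 15.2%, 28.0% and 21.8% in cKOs. Cad encodes the enzyme that starts pyrimidine synthesis, and its window with most cytosines (chr5:31067801-31067900) was at 25.8%, 90.5% and 98.4% in controls and 26.2%, 24.2% and 29.2% in cKOs. Of the 129 genes with at least 10 such windows, 76 had none that met the rule.

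Over gene lists the share of highly methylated windows that met the rule is read against 4.16% (690 of 16606) for all genes. The lists were chosen with earlier results of these data known, so that their shares and order are a description. Histone modifying enzymes had 9 of 74 (12.2%), in 7 genes. These were Kmt2b and Kmt2d with 2 each, and Dot1l, Ehmt1, Hdac4, Kmt5c and Setd1a with 1. In Kmt2b, an H3 lysine 4 methyltransferase, a coding window read 143 times or more in every library (chr7:30583201-30583300) was at 27.3%, 95.1% and 93.3% in controls and 27.5%, 28.8% and 21.0% in cKOs. In Setd1a, a methyltransferase of the same residue, a window near the 5′ end of the overlapping gene Gm49388 (chr7:127785101-127785200) was at 11.4%, 91.1% and 89.9% in controls and 20.8%, 20.5% and 15.3% in cKOs.

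The DNA methylation machinery had 3 of 39 (7.69%). Dnmt1, the maintenance methyltransferase itself, held 2 of them in coding exons. That at chr9:20908501-20908600 was at 38.2%, 89.3% and 89.8% in controls and 28.1%, 21.6% and 22.6% in cKOs. Mbd1, which binds methylated CpGs, held the third in an intron (chr18:74275601-74275700), at 22.7%, 94.6% and 95.1% in controls and 25.6%, 23.2% and 12.7% in cKOs.

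Keratin genes, which encode intermediate filaments of epithelia, had 4 of 21 (19.05%). Of these, 3 lay at gene starts. The window at Krt81 (chr15:101463601-101463700) was at 41.3%, 95.3% and 92.0% in controls and 23.5%, 28.8% and 28.1% in cKOs. At Krt83 (chr15:101491001-101491100) it was at 13.7%, 88.4% and 91.5% in controls and 23.5%, 29.9% and 28.1% in cKOs, and a window next to it also met the rule. Krt81 and Krt83 are close paralogs, and only perfectly matching reads were placed.

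Synapse and excitability genes had 8 of 185 (4.32%), near the share of all genes. Dlg4, which encodes the postsynaptic scaffold PSD-95, had a coding window (chr11:70039201-70039300) at 34.8%, 90.6% and 88.2% in controls and 7.35%, 25.7% and 26.9% in cKOs. Gria1, an AMPA receptor subunit gene, had an intronic window (chr11:57170401-57170500) at 38.8%, 89.5% and 95.7% in controls and 26.6%, 21.4% and 25% in cKOs. In both genes control replicate 1 was above all cKO libraries.

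Cortical progenitor and projection neuron regulators had 1 of 54 (1.85%), in an intron of Cux2, a homeobox gene of upper layer neurons (chr5:121907001-121907100). It was at 21.6%, 94.1% and 93.1% in controls and 14.9%, 22.2% and 19.12% in cKOs, over 1 cytosine. Axon guidance genes had 1 of 138 (0.725%), in an intron of the semaphorin receptor gene Plxnb1 (chr9:109111301-109111400), at 21.9%, 92.7% and 92.6% in controls and 21.6%, 29.1% and 25% in cKOs. Extracellular matrix genes had 5 of 179 (2.79%), of which Lama5, a laminin chain gene, and Hspg2, which encodes perlecan, held 2 each. Col16a1, at the border of the rule above, held the other.

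Notch, Wnt and Hedgehog pathway genes had 2 of 76 (2.63%). They were an exonic window of Dvl1, an intracellular relay of Wnt signals (chr4:155856101-155856200), at 48.1%, 94.8% and 93.5% in controls and 23.3%, 24.2% and 26.7% in cKOs, and an intronic window of the Notch coactivator gene Maml3 (chr3:51716901-51717000), at 29.2%, 89.3% and 93.2% in controls and 25.8%, 22.4% and 26.1% in cKOs. Chromatin remodelling genes had 2 of 53 (3.77%), in Chd5 and Baz2b. The Chd5 window (chr4:152382901-152383000) was at 13.8%, 85.7% and 92.2% in controls and 28.7%, 18.2% and 21.8% in cKOs.

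Lists of cells outside the Emx1 lineage, or that arise late from it, were small. Microglia, vessel and blood genes had 2 of 28 (7.14%). The window in Cx3cr1, the fractalkine receptor of microglia (chr9:120032101-120032200), was at 21.1%, 92.9% and 94.1% in controls and 19.6%, 20% and 17.5% in cKOs, and that in Cdh5, the cadherin of vessel cells (chr8:104110701-104110800), at 12.5%, 86.5% and 91.3% in controls and 27.8%, 23.4% and 15.2% in cKOs. Astrocyte and oligodendrocyte genes had 2 of 35 (5.71%). Slc1a2, a glutamate transporter gene of astrocytes (chr2:102683901-102684000), was at 26.1%, 88.3% and 89.9% in controls and 24.4%, 22.8% and 0% in cKOs, and Cspg4, a gene of oligodendrocyte precursors (chr9:56888501-56888600), at 15.4%, 92.6% and 90.7% in controls and 28.4%, 19.2% and 28.4% in cKOs. Interneuron and ventral forebrain genes had 0 of 10.

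Germline genes had 1 of 61 (1.64%), in an intron of Brdt, a bromodomain gene of the testis (chr5:107331701-107331800), at 41.2%, 97.5% and 94.7% in controls and 27.3%, 16.2% and 29.3% in cKOs. Unfolded protein and stress response genes had 1 of 18 (5.56%), in a coding exon of Ddit3, which encodes CHOP (chr10:127295901-127296000), at 11.5%, 86.7% and 89.9% in controls and 25.4%, 18.4% and 18.6% in cKOs. Imprinted genes had 0 of 28, interferon response genes 0 of 7, clustered protocadherins 0 of 7 and housekeeping genes 0 of 6. At these numbers of windows a share near that of all genes gives few or none, so that a count of 0 here is not a result.

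**Figure D5:**
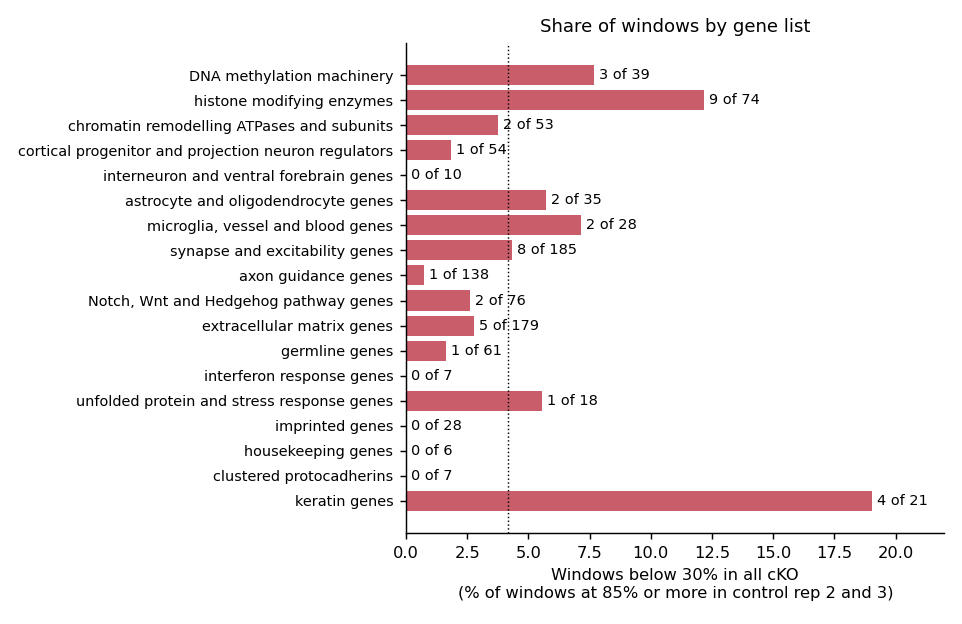
Share (horizontal axis, percent) of windows at 85% or more in control replicates 2 and 3 that were below 30% in all cKO libraries, for each gene list (vertical axis), with the counts beside each bar and the share over all genes (4.16%) as a dotted line. Keratin genes (4 of 21) and histone modifying enzymes (9 of 74) lie highest and axon guidance genes (1 of 138) is the lowest list with any.

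The median levels of whole lists, over all their highly methylated windows, differed in cKOs and in control replicate 1. Germline genes stood highest, with a median of 55.3% in cKOs and 54.9% in control replicate 1, against 37.2% and 32.9% over all genes. Cortical progenitor and projection neuron regulators were at 48.9% and 48.1%. Keratin genes were at 31.7% and 32.6%, and histone modifying enzymes at 34.2% and 26.9%. The lists were not compared by a test.

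Only 14 of the 982 windows lay in a promoter, taken from 1000 bp before to 500 bp after an annotated 5′ end of a coding gene. They include windows at Fcgr4, an Fc receptor gene of myeloid cells, and Fgb, the fibrinogen beta chain gene of liver. At Fcgr4 (chr1:171019301-171019400) the level was 29.3%, 100% and 100% in controls and 20%, 20.6% and 18.8% in cKOs, over 1 cytosine. At Fgb (chr3:83049701-83049800) it was 30.8%, 85.3% and 88.6% in controls and 28.9%, 28.9% and 5.00% in cKOs, also over 1 cytosine. The window at Siglece, a sialic acid receptor gene of myeloid cells (chr7:43659801-43659900), rested on 3 cytosines and was at 25%, 89.1% and 97.3% in controls and 25.2%, 25.5% and 21.0% in cKOs. These 3 windows were chosen for naming after their values were seen.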

How the data were processed

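Ox-RRBS was analysed in 3 control and 3 cKO libraries, grouped by the genotype in the labels. The authors mapped reads with Genomatix software to GRCm38, the build named in the submitters' processing notes together with methylKit, allowing no mismatch, and dropped thinly covered positions. Each deposited file lists cytosines by strand with their coverage, a read count of at least 6, and the percent of reads that were C or T, without normalisation between libraries. Perfect matching loses reads at strain variants and in recent repeats.

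Methylated reads were recovered as coverage times percent. Reads at the 646645 cytosines that reached this coverage in each of the 6 libraries were summed over 100 bp windows, and the level of a window is methylated over all reads. Genes came from GENCODE M21, promoters of 1000 bp upstream and 500 bp downstream of a 5′ end, repeats from the soft-masked GRCm38 sequence, and island-like windows from sequence (200 bp with a GC content of 50 percent or more and a CpG ratio, observed over expected, of 0.6 or more). Sequences were read from GRCm38, and windows that overlap an annotated untranslated region or lie on chromosome 18 are named without sequence.

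Group differences of windows were tested with a quasi-binomial F test whose dispersion was moderated with the empirical Bayes method of limma 3.58.1 (R 4.3.3), called at a Benjamini-Hochberg q under 0.01 and 25 points, and tested on simulated data first. Neighbour levels were compared over libraries with two-sided exact permutation tests, which cannot go below 0.1 with 3 against 3 or 2 against 3. The labels do not name litters, so p-values reflect the spread among these libraries alone. Windows were named by rule: the 8 largest falls with at least 5 cytosines and 50 reads per library, the genes with most windows or the highest share, the 2 windows with most reads of each of 18 gene lists, 2 windows on each side of the limits, pairs within 1000 bp and the longest runs, the first 3 in genome order of those of equal length. The windows, lists and rules were chosen with earlier results of these data known. Python 3.11.15 with numpy 2.4.6, pandas 2.3.3, scipy 1.17.1 and matplotlib 3.10.9 was used. Windows that the rule selects but that are withheld are not reported here.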

Additional observations from a re-analysis of the deposited data

How the results depend on the processing

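The number of windows depends on the limits and the depth asked for. It was 229 with 50 reads per library, 13 with limits of 90% and 20%, 5679 with limits of 80% and 35%, and between 1076 and 3575 when each library was left out in turn (2080 without control replicate 2, 2150 without control replicate 3, 3575 without cKO replicate 1 and 2985 without cKO replicate 2), where a rule with fewer libraries is also less strict. The median level of control replicate 1 was 23.3% with limits of 90% and 20% and between 24.3% and 26.8% on leaving out a library, against 25.9%.

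The difference between neighbours of the 982 windows and of other highly methylated windows, cKO minus control, changed sign to 1.86 points with limits of 90% and 20% (exact permutation p = 0.8) and to 1.70 points for neighbours 1100 to 5000 bp away (exact permutation p = 0.2), against -2.84 points. It was -5.61 points with 50 reads per window (exact permutation p = 0.1, the smallest possible), -5.00 points with windows weighted by reads, -1.76 points with limits of 80% and 35%, and between -3.67 and -0.854 points on leaving out a library. At 1100 to 5000 bp control replicates 2 and 3 were at 51.4% and 50.8% near the 982, against 58.9% and 58.5% near the others. The highly methylated neighbours there were at 40.2%, 37.7% and 29.1% in cKOs near the 982, against 45.2%, 43.6% and 35.6% near the others. The level near the windows themselves, cKO minus control, was -18.9 points at 1100 to 5000 bp and between -46.1 and -19.9 points on leaving out a library. The cause was not tested. Between 0 and 128534 windows of the genome were called on leaving out a library, with calls only without control replicate 1, and the plain binomial test, in which reads stand as replicates, called 107081.

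Deviations of same-numbered libraries from their group means correlated at -0.275, 0.1003 and -0.360. Control replicate 1 lay far below the other controls, at 17.6% against 45.5% and 45.3% over all windows with enough reads. The control deviations therefore mostly carry this gap, and the correlations cannot show whether replicate numbers pair the libraries. With the replicate number as a block the neighbour values stayed at -29.8 and -2.84 points, with an exact sign-flip permutation p = 0.5 (smallest possible 0.25), and 0 windows were called. Shifting the windows by 50 bp gave 1000 windows of the rule and a coverage minimum of 10 reads gave 887. Depth of 20 to 50 reads in the shallowest library of most of these windows gives the level there a counting interval of many points. Windows next to the limits of the rule are not distinct from those beyond them.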
